A study of Homo sapiens with 15 samples.

Results

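The gel-forming mucins MUC6, MUC2, MUC5AC and MUC5B are the large secreted glycoproteins that give mucus its viscosity, and their genes lie side by side on the short arm of chromosome 11. Around them, 49 regions of open chromatin were found among 222814 in the genome. Regions were made by merging the ATAC-seq peaks of all 15 libraries wherever they overlapped by at least 1 bp, and the 49 were those inside 1 of the 4 genes or within 50 kb of either end. The regions were thus chosen by the peak calls themselves, together with their place, so the number of libraries that called each region is a description. Because the genes are neighbours, 32 of the 49 regions lay in more than 1 of the 4 windows and each is counted once.

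ATAC-seq marks accessible chromatin through the DNA that a transposase can cut and tag. The cells were HPAF-II, a line from a human pancreatic adenocarcinoma that depends on WNT ligands for its growth. Cultures received 1 µM Lgk974, which blocks porcupine, the acyltransferase that WNT ligands need for secretion, or its solvent DMSO. Each treatment had 4 libraries at 24 h; at 48 h DMSO had 4 and Lgk974 had 3. A library was made from 50000 cells. All libraries came from this single line, and the labels do not say whether replicates were separate cultures, so every p-value measures only the spread between libraries. The comparison asks whether accessible chromatin around the mucin genes changed when WNT secretion was blocked.

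Gel-forming mucins are assembled through cysteine-rich ends that link monomers into polymers, and their long central exons encode serine- and threonine-rich repeats that carry O-linked sugars. MUC2 is the main mucin of the intestine, MUC5AC of the stomach surface and airway, MUC6 of gastric glands and MUC5B of airway glands. MUC5AC and MUC6 are also known from pancreatic ductal lesions. As background, MUC2, MUC5AC and MUC5B are transcribed in one direction and MUC6 in the other, away from MUC2. The gene table used here gives positions without strand, so both ends of each gene are described, the lower end being the one with the smaller coordinate. The lower end is then the start of MUC2, MUC5AC and MUC5B, and the upper end is the start of MUC6.

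Promoter sequences are shown for a start without a called peak and for starts with one in every library. Each is a window of 300 bases from RefSeq (GRCh38.p14), 250 before the start and 50 after it, written 5′ to 3′ on the strand of its gene. The capitals mark every match on either strand to motifs searched by their letters, namely CTTTGAA or CTTTGAT (TCF/LEF), TGTTTAC or TGTTTGC (FOXA), AGATAA (bound by GATA factors), TTTATNG (CDX), CGGAAG or AGGAAG (ETS), GGGCGG or CCACCC (SP/KLF), TGANTCA (AP-1) and TATAAA (the TATA box). The first is the MUC2 start (chr11:1074624-1074923, plus strand), the second the start of LOC107987157, a long noncoding RNA that runs away from MUC2 on the opposite strand (chr11:1073385-1073684, minus strand), and the third the farther of 2 listed starts of TOLLIP, the gene beside MUC5B (chr11:1309583-1309882, minus strand).
MUC2: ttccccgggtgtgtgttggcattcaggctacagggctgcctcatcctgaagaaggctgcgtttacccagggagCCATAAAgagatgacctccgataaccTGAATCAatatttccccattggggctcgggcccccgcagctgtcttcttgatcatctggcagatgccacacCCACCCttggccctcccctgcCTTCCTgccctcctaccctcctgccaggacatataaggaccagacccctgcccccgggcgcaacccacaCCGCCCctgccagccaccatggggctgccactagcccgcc
LOC107987157: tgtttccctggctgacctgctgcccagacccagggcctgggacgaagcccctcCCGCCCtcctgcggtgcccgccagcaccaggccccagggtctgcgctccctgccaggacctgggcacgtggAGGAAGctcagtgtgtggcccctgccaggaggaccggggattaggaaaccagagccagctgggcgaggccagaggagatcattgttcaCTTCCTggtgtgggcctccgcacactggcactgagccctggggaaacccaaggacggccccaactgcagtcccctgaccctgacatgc
TOLLIP: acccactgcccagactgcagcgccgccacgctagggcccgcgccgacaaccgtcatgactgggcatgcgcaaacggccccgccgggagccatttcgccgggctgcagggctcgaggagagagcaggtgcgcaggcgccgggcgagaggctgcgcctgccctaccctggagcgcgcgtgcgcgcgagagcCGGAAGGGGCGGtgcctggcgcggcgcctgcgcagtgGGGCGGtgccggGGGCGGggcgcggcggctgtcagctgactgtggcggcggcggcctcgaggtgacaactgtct

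No library called a peak in the MUC2 window, whereas all 15 called one in the windows of LOC107987157 and TOLLIP printed here. The other TOLLIP window (chr11:1302741-1303040), not printed, had a call in 0 libraries and held 1 TCF/LEF match. Of 34961 such windows in the genome, 43.1% had no call in any library and 35% were called in all 15. The MUC2 and LOC107987157 windows held similar numbers of CpG dinucleotides, 9 and 10, below the median of 14 over all windows, and TOLLIP held 41. Windows with no call had a median of 4 CpG and windows called in all 15 a median of 26. The MUC2 window held 1 CDX match, 1 ETS match, 2 SP/KLF matches and 1 AP-1 match. The LOC107987157 window held 2 ETS matches and 1 SP/KLF match, and TOLLIP 1 ETS match and 3 SP/KLF matches, one of them directly beside the ETS match without overlap. A CDX match occurred in 9.73% of all windows, AP-1 in 7.68%, ETS in 46.9% and SP/KLF in 60.2%. The remaining motifs, which had no match in the 3 printed windows, occurred in 6.87% (TCF/LEF), 7.16% (FOXA), 10.3% (GATA) and 11.5% (TATA).

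The 49 regions, numbered R1 to R49 along chr11:962823-1312172 (hg38), split into stable and sporadic ones. A peak was called in all 15 libraries at 13 regions, which is 26.5% of the 49 against 15.9% of all regions of the genome. In 1 library only were 18 called, or 36.7% against 39.5%. Another 3 regions were called in 2 libraries, 2 in 14 libraries, and 13 in 3 to 12 libraries, the class that could be tested (26.5% against 27.1%). Regions called in all 15 had a median width of 837 bp, and those called in 1 library 236.5 bp.

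**Figure D1:**
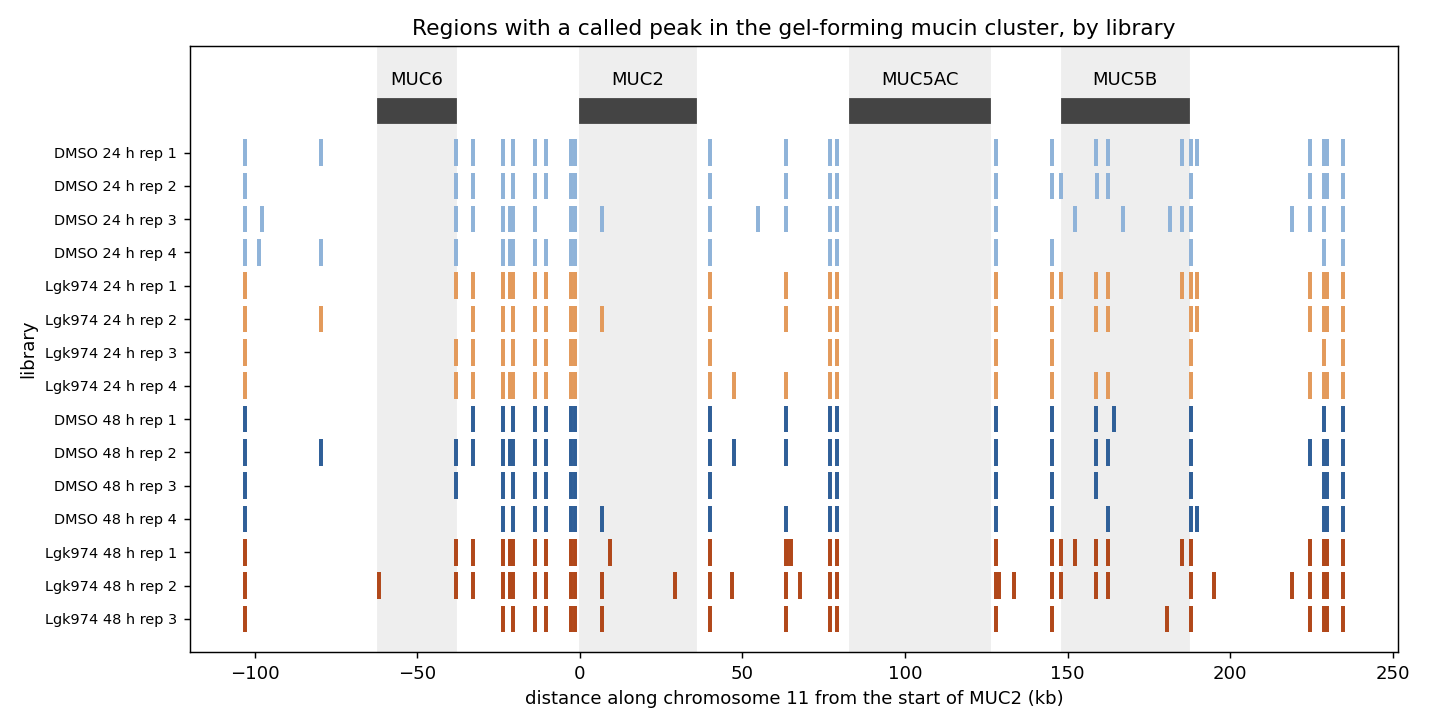
Each row is a library and each bar a region with a called peak, drawn by distance from the start of MUC2 in kb along chromosome 11. Dark boxes and grey bands are the 4 genes. All bars have the same width, which does not show the width of the regions. The 13 regions called in all 15 libraries form unbroken columns, all of them outside the grey bands, and no bar falls in MUC5AC.

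None of the 13 stable regions lay inside a mucin gene. The 4 genes cover 40.6% of the span examined, and 15 of the 49 regions lay in them, but the most widely called of these 15 was R6 at the upper end of MUC6, in 11 libraries. Over the genome, 52.1% of all regions and 63.0% of those called in all 15 libraries lay inside a protein-coding gene, and 22.0% of protein-coding genes of at least 20 kb held none. Of the 13 stable regions of the cluster, 5 lay in a protein-coding gene, namely AP2A2, LOC124902605 or TOLLIP. These are descriptions of 4 neighbouring genes and were not tested.

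MUC6 (chr11:1012823-1036718) had 16 regions in its window and 2 inside the gene. Its start, at the upper end, carried R6 (chr11:1036232-1037092), which at 24 h had a peak in 4 of 4 libraries with DMSO and 3 of 4 with Lgk974, and at 48 h in 2 of 4 and 2 of 3. The deposited fold over background of R6 ran from 2.87 to 5.11 in the 11 libraries that called it. Its lower end had a peak within 1 kb in 1 library. Of the 4 libraries that lacked a peak at R6, 2 belonged to each treatment.

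MUC2 (chr11:1074874-1110508) had 22 regions in its window and 3 inside. The region with the highest median fold in the cluster was R11 (chr11:1060628-1061607), 13267 bp before the start of MUC2 and inside LOC107987157. Its deposited fold ran from 8.36 to 13.9, its peak outranked 96.5% to 99.6% of the peaks in its own list, and the 15 summits lay within 18 bp of each other. Near the start, R13 (chr11:1071966-1072658) and R14 (chr11:1073096-1073919) ended 2216 and 955 bp before MUC2, and both were called in all 15 libraries. R13 and R14 are named because of this place, chosen after their values were seen. R14 contains the whole promoter window of LOC107987157 printed above. A peak reached to within 1 kb of the MUC2 start in 2 libraries, 1 with Lgk974 at 24 h and 1 with Lgk974 at 48 h, and no library had a peak within 1 kb of the other end. Inside the gene, R15 was called in 5 libraries and 2 other regions in 1 library each.

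MUC5AC (chr11:1157953-1201138) had 21 regions in its window and none inside. The stretch without any region ran from 1154436 to 1202110, 47675 bp, and spans the whole gene. Of the gaps between neighbouring regions in the genome, 3.81% were at least as long, and 2.44% of protein-coding genes of at least 20 kb held no region in any library. The gap is bordered by stable regions on both sides. Before the start lay R26 (chr11:1150881-1152830) and R27 (chr11:1153508-1154435), at 5123 and 3518 bp, and 973 bp beyond the upper end lay R28 (chr11:1202111-1203588). R26, at 1950 bp the widest of the 49, and R28 were merged from 25 and 22 peaks, as some libraries called several peaks there. No library had a peak within 1 kb of the MUC5AC start.

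MUC5B (chr11:1223066-1262172) had 22 regions in its window and 10 inside, none of which was called in more than 9 libraries. Its start carried R32 (chr11:1222622-1223079), with a peak at 24 h in 1 of 4 libraries of either treatment, and at 48 h in 0 of 4 with DMSO and 2 of 3 with Lgk974. Before it, at 2687 bp, lay R31 (chr11:1219640-1220379), called in 14 libraries, all except DMSO 24 h replicate 3. Beyond the upper end, at 164 bp, lay R42 (chr11:1262336-1263227), called in all 15 with a deposited fold of 5.40 to 9.96. Farther on, R49 (chr11:1308930-1310534) covered the printed TOLLIP start. In order, peaks within 1 kb of the start were called in 11 libraries for MUC6, 4 for MUC5B, 2 for MUC2 and 0 for MUC5AC. This order held in some other settings and not in all. With −log10 q of at least 5 the counts were 9, 3, 2 and 0. Without the 3 libraries described below as standing apart, they were 9, 4, 2 and 0. Within 3 kb they were 11, 14, 15 and 0, and on lists of equal length 1, 0, 2 and 0.

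Between Lgk974 and DMSO, no testable region of the cluster passed the test for a difference in calling. Each region called in 3 to 12 libraries was compared by a two-sided exact permutation test of the share of libraries with a call, averaged over both times with labels permuted within time (2450 assignments, smallest possible p = 0.000408), and p-values were adjusted by Benjamini-Hochberg over all 60356 such regions. Of the 13 regions of the cluster, 0 passed an adjusted p of 0.05, and the background was 0.0% of all regions tested. Without adjustment, 0 of 13 reached p under 0.05 in either direction, where the background was 2.96% of regions higher and 3.08% lower. The smallest exact p in the cluster was 0.173 (adjusted 0.962). The smallest adjusted p over all 60356 regions was 0.418. With so many regions, even the smallest possible p passes only where many regions reach it, so a region can separate the treatments and still not pass.

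**Figure D2:**
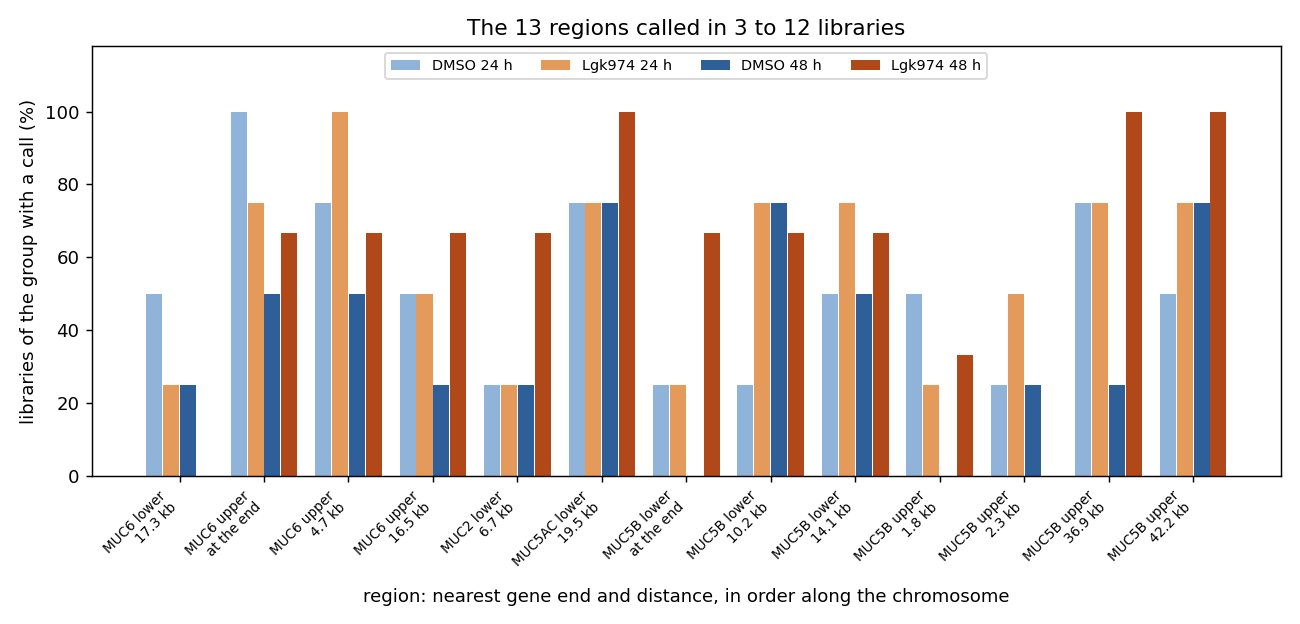
Bars give the percentage of the libraries of each group (4, 4, 4 and 3 libraries) that called each of the 13 regions found in 3 to 12 libraries, named by the nearest gene end and the distance to it. Lgk974 bars are often taller at 48 h, as at the MUC5B start, but no region passed the test.

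The sizes of these differences were as follows. Calling was higher with Lgk974 at 10 of the 13, lower at 2 and equal at 1, with a median difference of 20.8 percentage points against −4.2 over all regions tested. The set that could be tested changed to 11 regions at 24 h alone and 8 at 48 h alone. Their medians were 0.0 and 29.2 points, against 0.0 and 8.3 over all regions tested. Over both times, the cluster median fell to 12.5 without Lgk974 48 h replicate 1 or without Lgk974 48 h replicate 2. The median over all regions was −12.5 in both cases, and 12.5 without Lgk974 48 h replicate 3. The largest was at R46 (chr11:1299086-1299488), in TOLLIP, found with DMSO in 4 of 8 libraries and with Lgk974 in 6 of 7, a difference of 37.5 points (exact p = 0.186), which was 0.0 at 24 h alone and 75.0 at 48 h alone. At R32, the MUC5B start, the peak was found in 1 of 8 libraries with DMSO and 3 of 7 with Lgk974, a difference of 33.3 points (exact p = 0.173), which was 0.0 at 24 h alone and 66.7 at 48 h alone. R48 (chr11:1304369-1304756), also in TOLLIP, differed by 25.0 points, with 5 of 8 and 6 of 7 libraries. R4 (chr11:995036-995485), in AP2A2, went the other way by −25.0 points, with 3 of 8 and 1 of 7. R7 and R9 between MUC6 and MUC2, R15 inside MUC2 and R36 inside MUC5B each differed by 20.8 points. At every one of these regions both treatments had libraries with and without a call. The regions share libraries and list lengths, so their common direction is not independent evidence.

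The number of cluster regions called differed as much within groups as between them. At 24 h, DMSO replicates 1 to 4 had 25, 23, 26 and 19 regions, and Lgk974 replicates 26, 24, 17 and 24. At 48 h, DMSO replicates had 19, 25, 18 and 20, and Lgk974 replicates 29, 33 and 20. Group means were 23.2 ± 3.10 (SD, n = 4), 22.8 ± 3.95 (n = 4), 20.5 ± 3.11 (n = 4) and 27.3 ± 6.66 (n = 3). These were 47.5%, 46.5%, 41.8% and 55.8% of the cluster regions, against 44.7%, 37.1%, 39.6% and 40.8% of all regions. All groups overlapped, and Lgk974 48 h replicate 2, with the second longest list of peaks (122834), alone called 7 regions found in no other library. Lists held 53610 to 127886 peaks, and 3 of them stood apart from the rest. These were DMSO 24 h replicate 3, in which 36.6% of regions were found nowhere else, and Lgk974 replicate 3 at 24 h and at 48 h, the 2 shortest lists. Without these 3 libraries, 11 regions of the cluster could be tested and 0 passed, and over the genome 0 of 43080 passed. The median difference of the 11 cluster regions was 41.7 points against 16.7 over all regions tested.

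**Figure D3:**
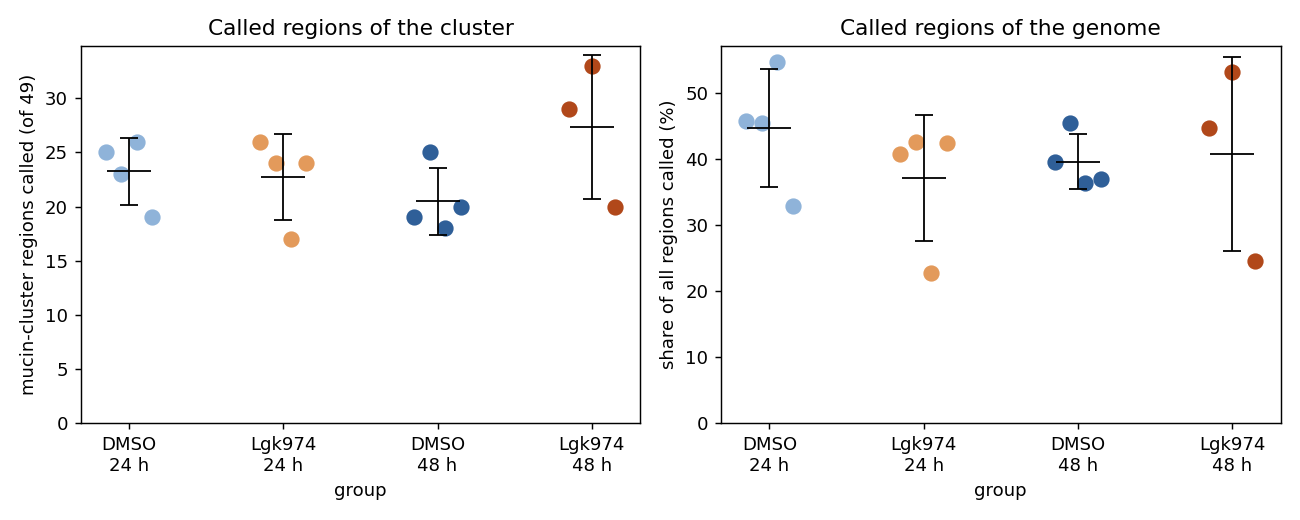
Points are libraries, with the group mean and SD as bars; the left panel counts the called regions of the cluster out of 49 and the right panel gives the percentage of all 222814 regions called. All 4 groups overlap in both panels, and Lgk974 48 h has the widest range, 20 to 33 of the cluster regions.

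A pair of further readouts gave differences at single regions, neither of which overrides the test above, since each was singled out after its values were seen. In the first, each list was shortened to its 53610 most significant peaks, the length of the shortest list. R31, before MUC5B, was then called in 1 of 4 DMSO libraries at either time, and in 4 of 4 and 3 of 3 Lgk974 libraries, a difference of 75.0 points (two-sided exact p = 0.0102). The Benjamini-Hochberg adjusted p was 0.165, and 0.203 to 0.392 over its alternatives, so it did not pass. On equal lists 26319 regions were tested; the unadjusted p was under 0.05 for 7.61% with more calls and 6.83% with fewer, and 0 (0.0%) passed after adjustment. On full lists the same region had a peak in 7 of 8 libraries with DMSO and 7 of 7 with Lgk974. When a call required peaks over 50% or more of the region, R26 had one in 1 of 8 libraries with DMSO and 5 of 7 with Lgk974 (exact p = 0.0388, adjusted 0.741, background 2.97% higher).

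The second readout ranked the 35389 regions called in all 15 libraries against each other within each library, by the authors' deposited −log10 q. The rank is the percentage of these regions with a lower value in the same library, so every library ranks the same set. It was not part of the planned comparisons. It was added because R14 had stood out in a plot of within-list ranks, and it is 1 of several ways in which the same regions were examined (calls on full, equal and stricter lists, by coverage and by summit, and ranks by q and by fold). The same exact test over all 35389 regions called 5.29% of them at an adjusted p under 0.05, 3.24% higher and 2.04% lower. Of the 13 cluster regions, 2 passed, both higher with Lgk974. Without adjustment, 2 were higher and 1 lower at p under 0.05, against 10.0% and 8.66% of all regions ranked.

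R14, the open promoter of LOC107987157 before MUC2, was the larger difference. At 24 h its ranks were 20.7, 29.7, 23.7 and 30.4 with DMSO and 68.1, 57.1, 80.3 and 76.3 with Lgk974. At 48 h they were 13.1, 33.9, 48.7 and 48.9 with DMSO and 55.7, 55.9 and 78.4 with Lgk974. All 7 Lgk974 libraries lay above all 8 DMSO libraries, which was the case for 1.25% of the regions ranked, and 0.596% separated the other way. The means were 31.1 ± 12.7 (SD, n = 8) and 67.4 ± 11.1 (SD, n = 7), a difference of 35.8 points averaged over the times (exact p = 0.00122, Benjamini-Hochberg adjusted 0.0319).

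R26, before MUC5AC, ranked 0.985, 0.829, 10.4 and 13.9 with DMSO and 38.9, 18.6, 40.2 and 36.7 with Lgk974 at 24 h. At 48 h it ranked 16.5, 6.55, 15.9 and 28.3 with DMSO and 22.6, 24.0 and 62.3 with Lgk974. The treatments overlapped at 48 h and not at 24 h. The difference was 23.3 points (exact p = 0.00245, Benjamini-Hochberg adjusted 0.0463). Both calls depended on the processing. By the same exact test, neither passed when regions were ranked by deposited fold (22.5 points, adjusted p = 0.217 for R14; 10.3 points, 0.277 for R26) or without the 3 libraries that stood apart (30.0 points, 0.0725; 16.3 points, 0.178). With replicate numbers as a block the differences were 37.9 and 25.2 points, both at the smallest exact p that 7 pairs allow (0.0156, adjusted 0.169). R14 also failed without Lgk974 48 h replicate 1 (37.7 points, exact p = 0.0019, adjusted 0.0508). Its adjusted p was 0.0196 to 0.0508 when each library was left out in turn. With fewer libraries there are fewer assignments and the smallest possible p rises, so a lost call need not mean a smaller difference. R26 passed only when the library left out was DMSO 24 h replicate 3 or DMSO 48 h replicate 4 (0.0452 to 0.127). A deposited q also depends on the depth of its library, which is unknown, and the part of depth in these ranks was not tested.

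**Figure D4:**
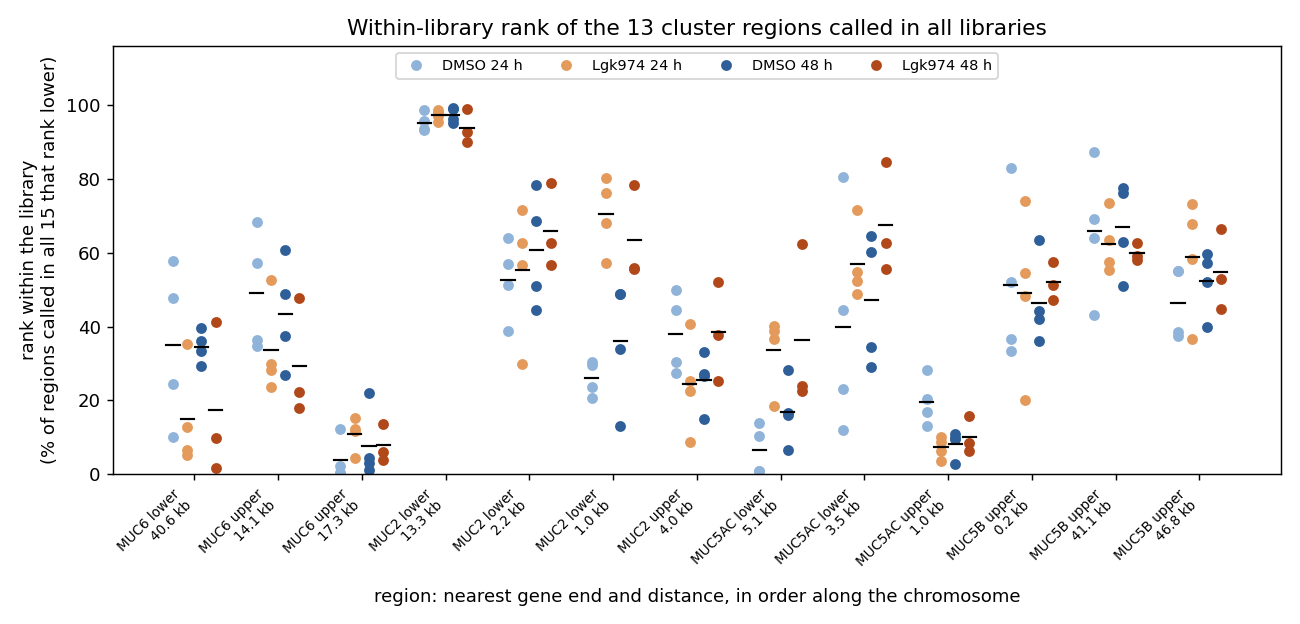
Points are libraries and black lines group means for the 13 cluster regions called in all 15 libraries; the vertical axis is the percentage of the 35389 regions called in all libraries that ranked lower in the same library by deposited −log10 q. The region 13267 bp before MUC2 sits near the top in every library, and at the region 955 bp before MUC2 both Lgk974 groups lie above both DMSO groups.

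The other 11 stable regions did not pass. R11 ranked 96.3 ± 2.35 with DMSO (n = 8) and 95.7 ± 3.33 with Lgk974 (n = 7), near the top in every library. R27, beside R26, ranked 43.5 ± 23.3 and 61.4 ± 12.6, with wide overlap (exact p = 0.0886, adjusted 0.365). R1 in AP2A2, at the far end of the MUC6 window, ranked lower with Lgk974 by −18.5 points (exact p = 0.0412, adjusted 0.241). At R13, next to R14, the difference was 4.0 points (exact p = 0.589, adjusted 0.872).

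Genes that act on mucins elsewhere in the genome were called as follows, by any peak within 1 kb of either gene end. Over the genome, 54.3% of protein-coding genes had such a peak in all 15 libraries and 18.6% in none. Of 20 transcription factors of mucous and gut epithelium, 12 were called in all 15 libraries, among them SPDEF, a factor of goblet cells, and FOXA1, FOXA2, FOXA3, KLF4, CDX2 and GATA6. ATOH1, the factor of intestinal secretory cells, and GATA4 had no call. Of 20 genes for mucin folding, packaging and secretion, 12 were called in all 15, among them AGR2, a disulfide isomerase needed for MUC2, ERN2, VAMP8 and TFF1. CLCA1 had no call and TFF3, the intestinal trefoil peptide, had 1. Of 10 membrane-bound mucins, 7 were called in all 15, among them MUC1, MUC4 and MUC13, while MUC15 and MUC16 had no call. MUC19, the gel-forming mucin outside the cluster, had none.

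Of these genes 6 could be tested and 0 passed by the exact test with Benjamini-Hochberg adjustment, where the background was 0.0% of 5800 genes. At an unadjusted p under 0.05 there were 0 of 6, against 1.83% of genes higher and 2.48% lower. The largest differences were at AGR3, a homologue of AGR2, with a peak in 4 of 8 libraries with DMSO and 0 of 7 with Lgk974, and at FCGBP, a mucus protein that binds MUC2, called in 0 of 8 and 3 of 7 (exact p = 0.0918 and adjusted p = 1.00 for both). ZG16, a lectin of intestinal mucus, was called in 1 of 8 and 2 of 7, a difference of 20.8 points. Of the transcription factors, CDX1 was called in 5 of 8 and 5 of 7, and NKX2-1 in 3 of 8 and 2 of 7.

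Of the epithelial genes, 6 of 6 (KRT8, KRT18, KRT19, EPCAM, CDH1 and CLDN4) were called in all 15 libraries, against 54.3% of protein-coding genes. KRT8 and KRT18 overlap, so they can share a peak. Calls near gene ends cannot identify the cell type, because some blood and fibroblast genes met the same criterion. Among blood genes, CD3E and CD14 were called in all 15 and PTPRC in 2. Of 4 fibroblast genes, COL1A1 was called in all 15, COL1A2 in 11, PDGFRB in 10 and DCN in 0. A peak near a gene end may belong to a neighbouring gene, and its presence does not show transcription.

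The genes that varied across libraries most like the mucin cluster were picked out, and most genes did not vary like it. The excess of calling was the call minus the rate of the library over all regions called in as many libraries. Genes with at least 10 regions called in 3 to 12 libraries were used. The mean excess of each gene was correlated with that of the cluster over the 15 libraries. The most alike were SH3BP4 (Pearson r = 0.819), RRBP1 (0.805) and DSCAML1 (0.799) among 1672 genes, whose median r was 0.087 and 99th percentile 0.727. The points share libraries and their depth, and the values are given as a description. For the cluster this excess ran from −32.8 points in DMSO 48 h replicate 1 to 23.6 in Lgk974 24 h replicate 1.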

How the data were processed

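Open chromatin was mapped in 15 HPAF-II libraries, grouped and numbered by their labels. Their growth protocol mentions a further line, KATO III. The authors deposited 1 peak list per library on hg38, called per library. Per the submitters' processing notes, reads were handled with tools that include Bowtie2 and Trimmomatic, and peaks with MACS2. Versions, settings, transposase shifting and the handling of reads with several matches, which bear on repeats, were not given in the sources used here. The deposited values of each peak are a score, a fold (a ratio over background), −log10 p and −log10 q, and a summit position. They are the authors' own and served to describe and rank peaks inside each list. No read counts were used, so depth is unknown, and chromatin without a call can still be open.

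Of 1413185 deposited peaks, 1138 outside chromosomes 1 to 22 and X were left out, and 1 damaged line was read as chromosome 1. Peaks were merged by their overlap, and a merge with bedtools 2.31.1 gave the same number of regions. Gene positions (59098 genes) and promoter windows came from RefSeq on GRCh38.p14; of the 4 members MUC2 had a promoter entry. Scripts used matplotlib 3.10.9, scipy 1.17.1, pandas 2.3.3 and numpy 2.4.6 under Python 3.11.15, and the tests were checked on simulated data.

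The 4 genes, the gene lists and the tests were chosen with earlier results of these data known. Regions were named by rule: up to 6 stable regions wider than their median, widest first, and the 8 with the largest difference in calling; listed genes by unadjusted p under 0.05, otherwise up to 3 a list by difference; and the 3 most alike genes. Others named were chosen after their values were seen. Some marker results are not reported here. Alternatives were equal lists, −log10 q of at least 5, coverage of 50%, 250 bp either side of summits and gene windows of 10 kb. Others were gene ends of 3 kb, a replicate block, each time alone, and leaving out each library or the 3 that stood apart. The comparison of ranks was added after the data were seen.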

Additional observations from a re-analysis of the deposited data

Results flagged for a closer look

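In 48 checks of a group of 4 libraries for a single library far from the others (list length, regions called and the within-library rank of each stable region), 4 stood apart, and chance alone flags about 1 in 20. The list of Lgk974 24 h replicate 3 held 53610 peaks, far fewer than the other 3 of its group. The rank of R10, between MUC6 and MUC2, was 22.0 in DMSO 48 h replicate 3, above its group. The rank of R26, before MUC5AC, was 18.6 in Lgk974 24 h replicate 2, below its group, and this library is part of the difference reported for R26. The rank of R28, beyond MUC5AC, was 2.68 in DMSO 48 h replicate 4, below its group.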

How the results depend on the processing

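The differences printed for single regions kept their sign wherever they could be computed, except that R46, R32, R15 and R9 were at 0.0 at 24 h alone, and 0 regions of the cluster passed the calling test under any alternative run. Small differences did turn, since the split of 10 higher and 2 lower became 9 and 4 without DMSO 24 h replicate 2. With equal lists, 23 of the 49 regions had a call and 1 was higher at an unadjusted p under 0.05; peaks near the ends fell to 0 libraries for the MUC6 lower end, 1 for the MUC6 upper end, 2 for the MUC5AC upper end and 0 for the MUC5B lower end. With −log10 q of at least 5, the MUC6 lower end had 0. With coverage of 50%, 5 regions were called in all libraries and 1 was higher at an unadjusted p under 0.05. Within 10 kb of the genes there were 28 regions, 7 of them called in all libraries. Within 3 kb of an end, a peak was called in 15 libraries at the MUC2 lower end, 15 at the MUC5AC upper end and 14 at the MUC5B lower end. The order of the gene starts therefore changed with equal lists and within 3 kb. The median difference in calling was 0.0 points at 24 h alone and 41.7 points without the 3 libraries that stood apart. Each was taken over the 11 regions that could be tested in that setting.

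Of the 2 regions that passed on ranks, 0 did when ranked by fold, 0 with the replicate block and 0 without the 3 libraries (differences of 30.0 and 16.3 points), and leaving out each library in turn gave 0 to 2. The 7 pairs of the block allow no exact p below 0.0156, which both regions reached with differences of 37.9 and 25.2 points, so the lost call there says nothing about stability. Same-numbered libraries had correlations of −0.032 to 0.146, not above 0.1 in every pair, so the numbers were not taken to pair the samples. Lgk974 replicates 1, 2 and 3 at 24 h and replicate 1 at 48 h correlated best with the DMSO library of their number. The other Lgk974 libraries did not, and these values do not settle whether the numbers mark pairs. With the replicate block on calling, 0 of the 13 tested regions of the cluster passed, and 0 of all 60356. The same smallest exact p of 0.0156 holds there. Where a value moved, the cause was not tested. Calls alone cannot show changes in openness above the threshold of calling. Without read counts, the ranks by deposited values show only the order of regions within a library.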
